A study of Mus musculus with 15 samples.

Results

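The Slc25 genes code for the mitochondrial carriers, and 44 of the 22032 gene symbols on the array belonged to this family. They were chosen by name, as every gene symbol made of Slc25a and a number, and 51 of the 29522 probes with a gene symbol measured them. Slc25a47 was the reason for looking at the family, because its level was already known to be higher in the DEN-treated livers that had received Gas1 than in those that had not. Its differences between groups are therefore given here as a description, with no test, and the counts of tested genes are over the other 43 members.

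Liver RNA of male CD1 mice was hybridised to single-colour arrays, and both the effect of the carcinogen diethylnitrosamine (DEN) and that of Gas1, delivered to adult mice while tumours developed, were examined. Mice injected with saline and then with empty plasmid form group C. In group T, DEN was given in infancy, which leads to hepatocellular carcinoma, and the empty plasmid followed. In group G, DEN was followed by pcDNA3/CAG-HAGas1, which codes for an HA-tagged GAS1 protein under the CAG promoter. All groups, C included, underwent hydrodynamic gene delivery (HGD), a rapid tail-vein injection, with 50 µg of plasmid. HGD reaches only a part of the liver cells, those around the vessels, and the RNA came from tissue that holds transfected and untransfected cells together. The labels give an age of 10 weeks for every sample, whereas the study's methods place the repeated deliveries and the collection of the livers later in adult life.

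The 15 arrays (4 for C, 5 for T and 6 for G) were spread over 2 slides, with all 3 groups on both. C3 and C4 carried the same RNA code, and so did T4 and T5. The SD of the log2 differences within these pairs was 0.146 and 0.143, against at least 0.291 and 0.235 for the other pairs of the same groups, and each pair was averaged to 1 mouse, named C3 and T4. The comparisons therefore rest on 3, 4 and 6 mice. Each array had between 15707 and 29765 of its 59305 spots other than controls well above background. The 3 Gas1 probes gave 6.30 to 6.67 in group C, 6.41 to 6.61 in group T and 6.49 to 6.79 in group G, with a log2 difference between G and T of 0.08 (adjusted p = 0.768, limma). Whether these probes lie within the delivered sequence is not given in the sources used here. The 10 hepatocyte markers were well above background on all arrays. The log2 of the summed intensities of the 9 measured in every mouse was 19.606 to 19.663 in group C. It was 19.287 to 19.585 in group T, below all mice of group C, and 19.378 to 19.607 in group G. Over the 10 markers, the median log2 fold change was -0.21 in T minus C, -0.02 in G minus T and -0.24 in G minus C. In T minus C, 3 of the 10 lay above zero. There 1 was lower at an adjusted p below 0.05 (limma), against 1.17% of all genes.

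Carriers of this family sit in the inner mitochondrial membrane, with a few in other organelles, and exchange metabolites, nucleotides, cofactors or inorganic ions between the mitochondrial matrix and the cytosol. In liver they serve the urea cycle, gluconeogenesis, the malate-aspartate shuttle, the export of citrate for lipid synthesis and the entry of acylcarnitines for fatty acid oxidation. Slc25a47 is a carrier found almost only in hepatocytes and was first described as a transcript low in hepatocellular carcinoma, and its substrate is less well established than those of the older members.

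Of the 44 members, 30 were well above background on all arrays, 8 on some and 6 on none (Slc25a2, Slc25a18, Slc25a31, Slc25a35, Slc25a36 and Slc25a43). Slc25a31, for example, is the ADP/ATP carrier isoform of the testis. The 8 partly detected members were Slc25a14, Slc25a22, Slc25a24, Slc25a27, Slc25a29, Slc25a30, Slc25a40 and Slc25a41, from 2 of 15 arrays for Slc25a24, Slc25a27 and Slc25a40 to 14 for Slc25a14. Levels are compared below only within a gene, since different probes differ in brightness for the same amount of RNA.

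The sequences upstream of 3 members are shown because their levels carry most of what follows: Slc25a47, Slc25a42, the member whose level followed it most closely, and Slc25a10, the 1 of the other 43 members that passed the test. Each run is the 250 bases before the transcription start in RefSeq (GRCm38.p6), written 5′ to 3′ on the gene's own strand, at chr12:108850879-108851128 (plus strand), chr8:70212282-70212531 (minus strand) and chr11:120491587-120491836 (plus strand), respectively. Capitals mark matches, on either strand, to any of 7 motifs: the E-box CACGTG, the NF-Y box CCAAT, the D-box TTATGTAA, the palindromic NRF1 motif, the nuclear receptor half-site AGGTCA, the GC box GGGCGG and the TATA box TATAAA.
Slc25a47: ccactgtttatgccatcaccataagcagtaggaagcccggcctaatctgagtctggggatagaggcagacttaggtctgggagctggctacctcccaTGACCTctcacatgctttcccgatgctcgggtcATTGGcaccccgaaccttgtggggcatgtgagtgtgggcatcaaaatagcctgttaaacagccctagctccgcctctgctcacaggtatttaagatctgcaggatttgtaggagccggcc
Slc25a42: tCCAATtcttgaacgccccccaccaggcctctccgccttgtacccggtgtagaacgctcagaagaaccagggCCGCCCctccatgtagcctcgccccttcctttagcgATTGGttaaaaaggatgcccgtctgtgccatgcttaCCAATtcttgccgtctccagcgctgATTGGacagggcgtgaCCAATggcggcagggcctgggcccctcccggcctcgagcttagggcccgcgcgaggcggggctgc
Slc25a10: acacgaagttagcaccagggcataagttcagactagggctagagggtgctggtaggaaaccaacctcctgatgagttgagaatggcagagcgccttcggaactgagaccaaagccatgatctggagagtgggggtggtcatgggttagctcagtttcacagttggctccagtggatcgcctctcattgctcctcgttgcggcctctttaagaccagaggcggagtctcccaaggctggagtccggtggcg

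The Slc25a47 window held 1 nuclear receptor half-site, starting 153 bases before the transcription start, and 1 NF-Y box 120 bases before it. The Slc25a42 window held 5 NF-Y boxes and 1 GC box, and that of Slc25a10 held none of the 7 motifs. Over all 32851 windows of this length, 33.8% held an NF-Y box, 32.7% a GC box, 14% a nuclear receptor half-site, 12.4% a TATA box and 6.02% an E-box. For the 34 members with an entry there were 43 windows, of which 46.5% held an NF-Y box, 69.8% a GC box and 18.6% an E-box. The other motifs were rarer in the member windows than in all windows. A nuclear receptor half-site lay in 9.3% and a TATA box in 4.65%. The D-box and the NRF1 motif lay in 0% (0.819% and 0.782% of all windows). These matches describe the letters alone, and no binding was measured.

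Slc25a47 was highest in the livers that received DEN and Gas1. Its single probe lies at chr12:110094661-110094720 of the mm9 assembly and was well above background on every array. The normalized log2 intensities were 11.43, 11.56 and 11.57 in group C and 11.29, 11.15, 11.27 and 11.03 in group T. In group G they were 12.01, 11.96, 12.17, 11.98 and 11.96 for G1, G2, G3, G4 and G6, whereas the spot of G5 was marked as an outlier by the scanner software and left out of the fit (12.19 if kept). The 3 groups did not overlap, in the order T, C, G (with T above C in the mean when arrays were scaled to their medians). Means were 11.52 ± 0.08 (SD, n = 3) for C, 11.18 ± 0.12 (n = 4) for T and 12.01 ± 0.09 (n = 5) for G.

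Against T, Slc25a47 in G had a log2 fold change of 0.83 (SE 0.07), which is 1.78-fold, and against C one of 0.49 (SE 0.07), which is 1.41-fold. Between T and C it was -0.34 (SE 0.08), but 0.66 when each array was scaled to its median. Under that scaling the median gene well above background on all arrays was itself 0.65 higher in T than in C, so that Slc25a47 stood 0.02 above it. Within the slides, the G minus T difference was 0.90 and 0.82, G minus C was 0.44 and 0.51, and T minus C was -0.46 and -0.31. In RNA from whole liver, fewer cells that express a gene and less of its RNA per cell cannot be told apart. The part of the hepatocyte marker levels given above in these differences was not tested.

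**Figure D1:**
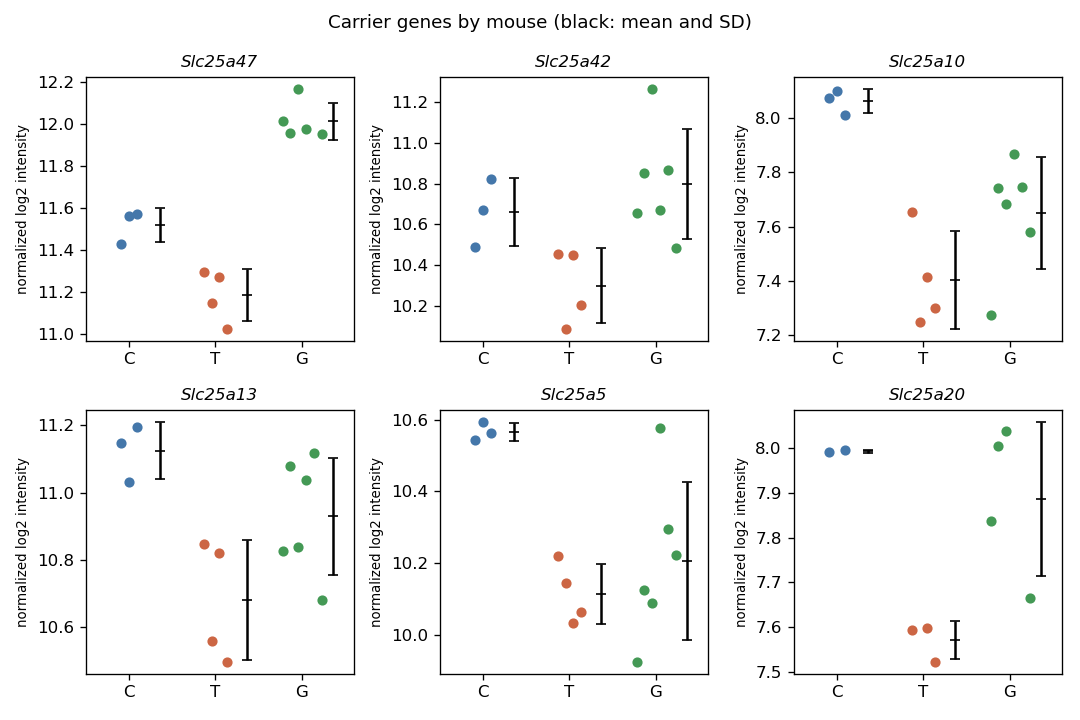
Normalized log2 intensity (y axis) of 6 carrier genes in each mouse of groups C, T and G (points), with the mean and SD of the group in black. Slc25a47 lies between 11.96 and 12.17 in group G, above all mice of the other groups, and lower in T than in C except when arrays are scaled to their medians; Slc25a10 lies between 8.01 and 8.10 in group C, above all other mice as normalized here.

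**Figure D2:**
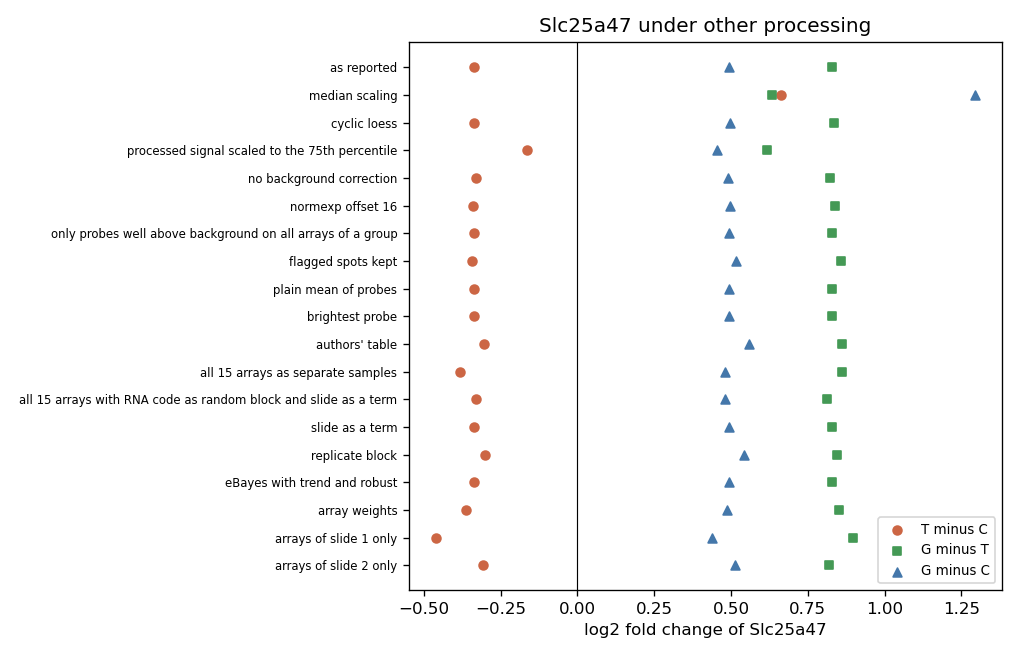
Log2 fold change of Slc25a47 (x axis) under the processing as reported and 18 alternatives (rows), with points for T minus C, G minus T and G minus C. G minus T lies between 0.62 and 0.90 in every row, whereas T minus C lies below zero in all rows except scaling to the array median, at 0.66.

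The 3 gene symbols with the nearest probes on either side of Slc25a47 on chromosome 12 were Degs2, Yy1 and Slc25a29, and Wars, Wdr25 and Begain, at 3.6 to 175.7 kb from the Slc25a47 probe. For G against T, their log2 fold changes were 0.01 for Degs2, -0.21 for Yy1 and -0.03 for Slc25a29. Those of Wars, Wdr25 and Begain were -0.32, -0.09 and -0.03. Tested per symbol, with the 2 probes of Wars averaged, none passed (adjusted p from 0.124 to 0.959, limma). Wars, the cytosolic tryptophanyl-tRNA synthetase, was lower in all 6 mice of group G than in group T by 0.32 (SE 0.07), with adjusted p = 0.124. Its nearer probe, 3.6 kb away, gave 0.50 (SE 0.07) for T minus C and -0.44 (SE 0.06) for G minus T, while its second probe, 9.7 kb away, gave -0.14 (SE 0.13) and -0.20 (SE 0.11). The 2 probes of Wars thus differed in sign between T and C. Against its SE, the T minus C value of the nearer probe was larger than that of the Slc25a10 probe (-0.66, SE 0.12). The Slc25a10 probe passed the test per probe (adjusted p = 0.0323, limma). Slc25a29, the carrier of basic amino acids and the family member next to Slc25a47, ranged from 6.24 to 6.58 in group C, from 6.44 to 6.77 in group T and from 6.34 to 6.82 in group G, and the groups overlapped.

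**Figure D3:**
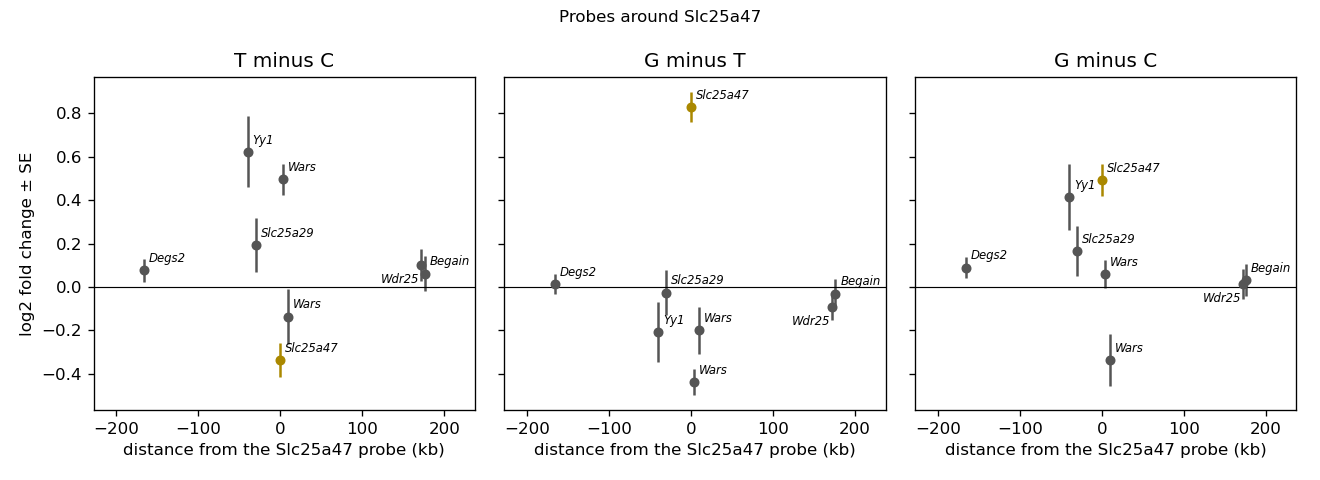
Log2 fold change ± SE (y axis) of each probe of Slc25a47 (ochre) and of the 3 gene symbols on either side, against the distance from the Slc25a47 probe in kb (x axis), for the 3 comparisons. In G minus T, Slc25a47 stands at 0.83 and the nearer Wars probe at -0.44; the T minus C value of Slc25a47 turns positive when arrays are scaled to their medians.

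Among the 8047 genes well above background and measured in the same 12 mice, those most like Slc25a47 by Pearson correlation were Ppp2r2d (r = 0.94), Ypel3 (0.90), Hmgb3 (0.90), Peci (0.89) and Esam (0.88). The lowest were Etv5 (-0.94), BC029722 (-0.92), Rnf115 (-0.91), Ostc (-0.89) and Cnih (-0.89). These 12 mice share the group differences and the 2 slides, and the correlations are a description. Within the family, Slc25a42 was the most alike (r = 0.79), followed by Slc25a34 (0.61) and Slc25a25 (0.56). The lowest r among the members compared was that of Slc25a45 (-0.70). For Slc25a34 the 12 mice include G6, where it stood at 8.007, with the next mouse of group G at 7.363.

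The comparison of T with C asked how the carriers differed between livers of DEN-treated and saline-treated mice. Tumour and other liver tissue were not compared separately. Of the other 43 members, 0 were called higher and 1 was called lower at an adjusted p below 0.05, against 2.38% of all genes (1.22% higher and 1.17% lower), and 22 of the 43 (51.2%) lay above zero, against 52.1% of all genes. At an unadjusted p below 0.05 there were 7 higher and 8 lower members, 34.9% of the 43, against 20.3% of all genes. All mice of group T lay above all of group C for 7 members and below for 7, 32.6% together, against 19.0% of all genes (10.4% above and 8.59% below). The median log2 fold change of the 43 members was 0.001, and that of all genes was 0.006. Under median scaling the members called were 6, all higher, on top of the shift of 0.65 given above, and 2818 of all 22032 genes were called higher. With that scaling, negative T minus C values named below turn positive for at least Slc25a1, Slc25a5, Slc25a10 (0.0079), Slc25a11, Slc25a13, Slc25a20, Slc25a21 and Slc25a42.

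The carriers of dicarboxylates and tricarboxylates supply malate, oxoglutarate and citrate to gluconeogenesis and lipid synthesis, and 4 of 4 were below zero in T minus C, with a median of -0.27 (0.55 under median scaling, which is 0.10 below the median gene). Slc25a10, the dicarboxylate carrier, which exchanges malate or succinate for phosphate, was the 1 member that fell. Its values were 8.07, 8.10 and 8.01 for C1 to C3, 7.66, 7.25, 7.41 and 7.30 for T1 to T4, and 7.28, 7.74, 7.68, 7.87, 7.74 and 7.58 in group G. All mice of groups T and G lay below those of group C, and G1 and G6 lay within the range of group T. The log2 fold change was -0.66 (SE 0.13, adjusted p = 0.0236, limma), or 1.57-fold lower, and -0.64 relative to the median gene well above background when arrays were scaled to their medians, where the value itself was 0.0079. Within the slides it was -0.81 and -0.57. The call was lost in 5 of the 13 fits that left out 1 mouse: without T2, T3 or T4 and without C1 or C2, with adjusted p from 0.0586 to 0.0756. It was also lost with cyclic loess (adjusted p = 0.0627), with the scanner's processed signal scaled to the 75th percentile (0.0677), with the replicate number as a block (0.0768) and in both forms of the methods' t-test, with equal variances (0.134) and unequal variances (0.264). For G against C, Slc25a10 stood at -0.41 (SE 0.12, adjusted p = 0.148), but at 0.21 under median scaling (0.35 below the median gene).

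The other 3 of this group did not pass the test. Slc25a1, the citrate carrier, was between 11.03 and 11.40 in group C and between 10.84 and 10.97 in group T, without overlap (-0.35, SE 0.13, adjusted p = 0.142). Slc25a11, the oxoglutarate-malate carrier, stood at -0.19 (SE 0.10) and Slc25a21, the oxodicarboxylate carrier, at -0.14 (SE 0.09).

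Slc25a13 and Slc25a12 are the citrin and aralar isoforms of the aspartate-glutamate carrier, and they lay on opposite sides of zero in T minus C (under median scaling both were positive, at 0.55 and 0.92). Slc25a13, the isoform of the liver, was 11.15, 11.03 and 11.19 in group C and 10.85, 10.56, 10.82 and 10.50 in group T (-0.44, SE 0.12, adjusted p = 0.0626). The groups did not overlap, and group G, from 10.68 to 11.12, covered both ranges in part. For Slc25a12, the isoform of muscle and brain, the values were 7.12, 6.85 and 7.28 in group C and 7.28, 8.11, 7.50 and 7.45 in group T (0.50, SE 0.24, adjusted p = 0.266). T2 stood well above the other mice of its group, and without it the difference was 0.32. Of the remaining carriers of amino acids, none was called: the 9 members of this group had a median of 0.00, with 5 above zero.

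Among the carriers of adenine nucleotides, phosphate and coenzyme A, none of 10 was called and 4 were above zero. Slc25a5, the main ADP/ATP carrier of dividing cells and of liver, was 10.54, 10.59 and 10.56 in group C and 10.22, 10.14, 10.03 and 10.06 in group T, without overlap (-0.45, SE 0.12, adjusted p = 0.0601). In group G it ranged from 9.93 to 10.58, and only G4 lay within the range of group C. Slc25a42, which brings coenzyme A into the matrix, was 10.49, 10.67 and 10.82 in group C and 10.46, 10.09, 10.45 and 10.21 in group T (-0.36, SE 0.16, adjusted p = 0.225). Slc25a24, a carrier of ATP-Mg and phosphate, was well above background on 2 arrays and stood at 0.22 (SE 0.07, adjusted p = 0.114).

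Slc25a20 is the carnitine-acylcarnitine carrier, through which long-chain fatty acids enter the matrix. Flagged spots left values for 2 mice of group C (7.99 and 7.99), 3 of group T (7.59, 7.60 and 7.52) and 4 of group G (7.84, 8.004, 8.04 and 7.67). The T mice lay below all others. The log2 fold change was -0.42 (SE 0.11, adjusted p = 0.0776) for T minus C and 0.31 (SE 0.09, adjusted p = 0.247) for G minus T, and with the flagged spots kept it was -0.40 and 0.23.

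The 3 relatives of the uncoupling proteins had a median of 0.32 in T minus C (0.30 under median scaling, below the median gene by 0.35, and 0.97 with the processed signal scaled to the 75th percentile, above the median gene by 0.88). Slc25a30, described as a kidney carrier, was 6.10, 5.99 and 6.11 in group C and 6.25, 6.33, 6.53 and 6.42 in group T (0.32, SE 0.09, adjusted p = 0.0716), close to background in both. Slc25a14 stood at 0.39 (SE 0.14, adjusted p = 0.143) and overlapped, and its value was 0.18 without C2 and 0.56 without C3. The 4 carriers of iron and glutathione had a median of 0.14, the 6 of cofactors and nucleotides a median of 0.02 and the 6 little-studied members a median of 0.09, with none called. In the last group Slc25a45 was between 7.49 and 7.53 in group C and between 7.59 and 8.10 in group T, without overlap (0.32, SE 0.15, adjusted p = 0.241).

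**Figure D4:**
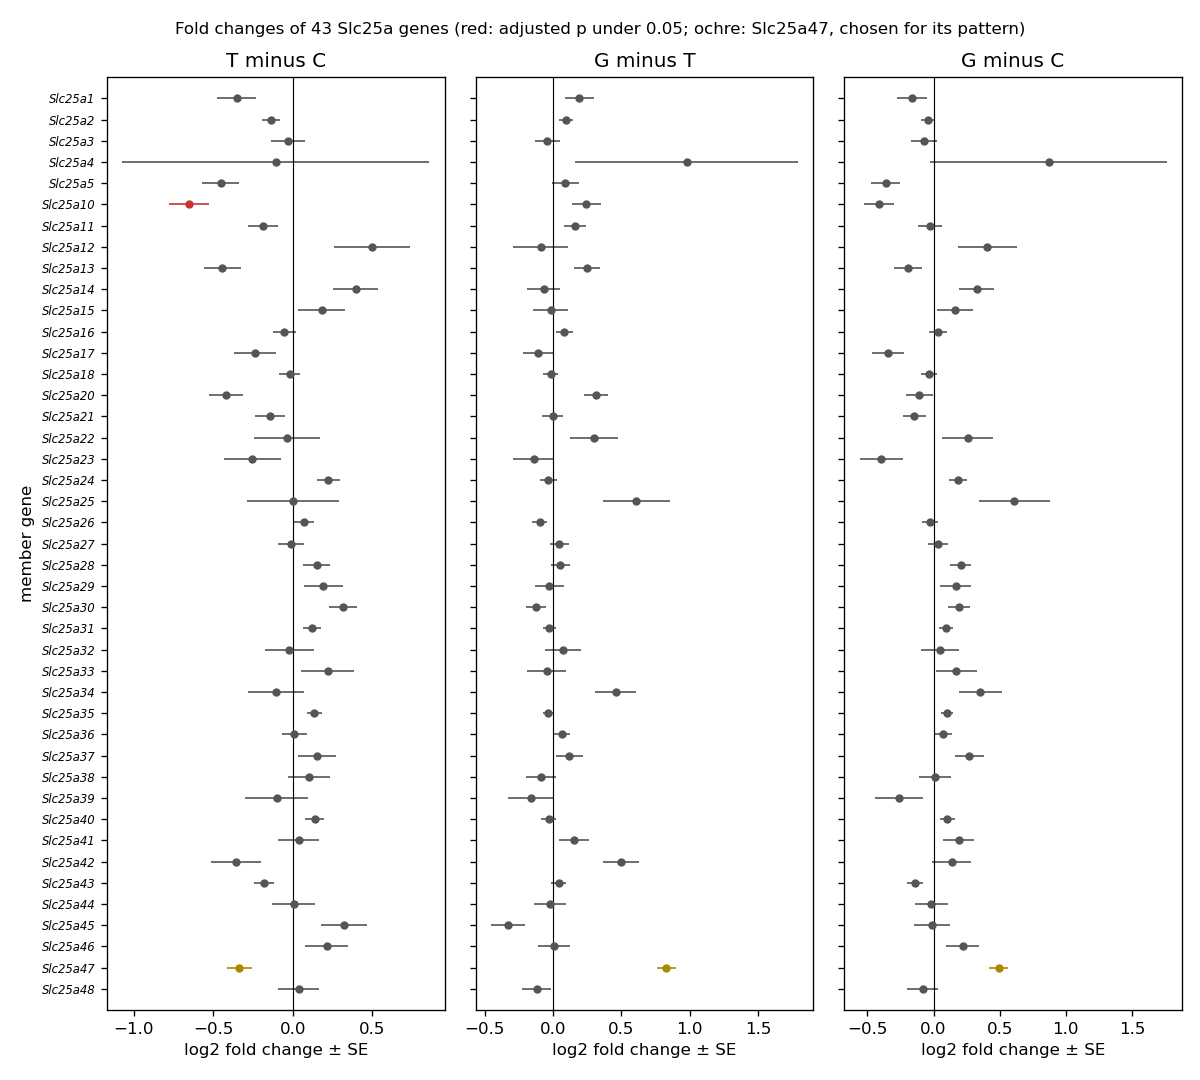
Log2 fold change ± SE (x axis) of 43 of the 44 members (rows) for T minus C, G minus T and G minus C, with members at an adjusted p below 0.05 in red and Slc25a47, chosen for its pattern, in ochre. Slc25a10 in T minus C, at -0.66, is the 1 called of the other 43 members (0.0079 when arrays are scaled to their medians), and the wide bars of Slc25a4 come with a single mouse of group G at 13.04.

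The comparison of G with T asked which genes differed once Gas1 had been delivered to DEN-treated livers. It shares the mice of group T with the comparison above, so that a low mean in T enters both. None of the 43 members was called, against 0.127% of all genes (0.0272% higher and 0.0999% lower), 21 lay above zero, against 46.1% of all genes, and 6 were higher and 1 lower at an unadjusted p below 0.05 (16.3%, against 10.9% of all genes). The mice of group G lay above all of group T for 3 members of the 43 and below for 0, 6.98% against 3.08% of all genes (1.07% above and 2.01% below). The median of the members was -0.003 and that of all genes was -0.009.

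Slc25a42 was between 10.48 and 11.26 in group G, above all mice of group T (0.50, SE 0.13, adjusted p = 0.165). Its within-slide differences were 0.67 and 0.41. Slc25a25, another carrier of ATP-Mg and phosphate, was 10.41, 9.81, 10.09, 10.22, 10.35 and 9.52 in group G and 9.02, 9.09, 10.27 and 9.45 in group T (0.61, SE 0.25, adjusted p = 0.391). T3 overlapped with group G. Slc25a13 and Slc25a10 stood at 0.25 (SE 0.10, adjusted p = 0.377) and 0.24 (SE 0.11, adjusted p = 0.429). Slc25a45 was the member with an unadjusted p below 0.05 on the lower side, at -0.33 (SE 0.12, adjusted p = 0.357).

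A single mouse, G6, stood far above all others for Slc25a4. Slc25a4 is the ADP/ATP carrier isoform of heart and skeletal muscle. It was 8.20, 8.13 and 7.995 for C1 to C3, 8.32, 8.01, 7.97 and 7.71 for T1 to T4, and 8.14, 8.01, 8.03, 8.48 and 8.18 in G1 to G5, whereas it reached 13.04 in G6, 31.2-fold above the median of the other 12 mice. The log2 fold change of G against T was 0.98 (SE 0.82, adjusted p = 0.715), and 0.16 (SE 0.12, adjusted p = 0.703) without G6.

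Markers of skeletal muscle were high in the same mouse. The log2 of the summed intensities of the 5 markers measured in every mouse was 13.7 in G6 and 8.27 to 8.51 in the other 12 mice. Acta1, Myh4 and Tnnt3, which code for skeletal muscle actin, a fast myosin heavy chain and a fast troponin T, reached 13.5, 12.5 and 12.2, against medians (over 11 mice for Acta1, which had no value in G5) of 6.44, 5.97 and 6.13 in the other mice. Ckm, the muscle creatine kinase, and Myl1, a myosin light chain, were at 10.8 and 10.2, against 6.08 and 5.96, so that 5 of the 6 markers were highest in G6. The sixth, Mylpf, was at 6.05 in G6 and no array had it well above background. The part of muscle RNA in the level of Slc25a4 in G6 was not tested.

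Slc25a34 and Slc25a12 were highest in G6 as well, at 8.01 and 8.15. Slc25a34, whose substrate is not settled, was 7.10, 7.01, 7.32, 7.20 and 7.36 in G1 to G5 and between 6.80 and 6.96 in group T, so that all mice of group G lay above those of group T (0.46, SE 0.15, adjusted p = 0.272). Without G6 the value was 0.32 (SE 0.07, adjusted p = 0.117). Slc25a12 was almost as high in T2, at 8.11, where the muscle markers summed to 8.27. The log2 of the summed exocrine pancreas markers (5 of 6 measured in every mouse) was 10.11 in T2, against 9.10 to 9.46 in all other mice. Their part in the level of Slc25a12 in T2 was not tested. Without G6, 0 of the 43 members were called for G against T and 0 for G against C, as with it, and Slc25a47 stood at 0.84 and 0.51. In T against C, where G6 enters only through the shared estimate of the spread, leaving it out raised the members called from 1 to 4: Slc25a10, Slc25a13 (adjusted p = 0.0417), Slc25a20 (0.0342) and Slc25a30 (0.0499).

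**Figure D5:**
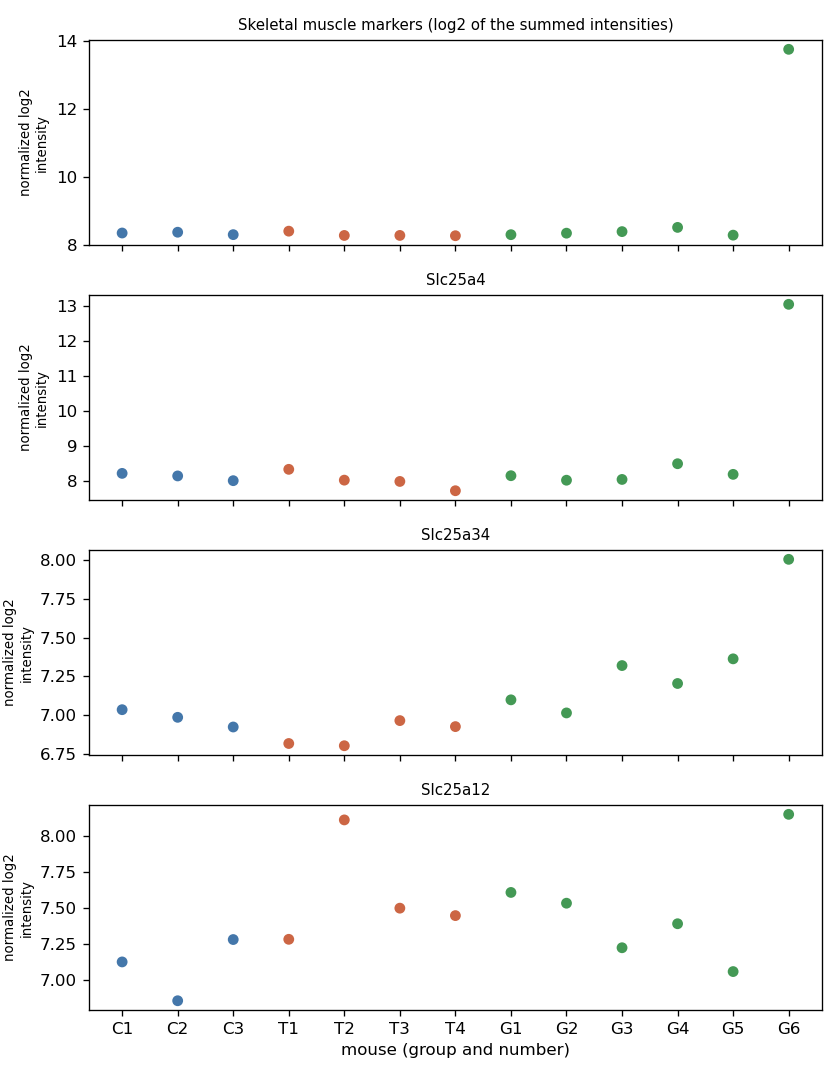
Normalized log2 intensity (y axis) in each of the 13 mice (x axis, by group and number) of the sum of the 5 skeletal muscle markers measured in all mice, Slc25a4, Slc25a34 and Slc25a12. G6 stands at 13.7 for the markers and at 13.04 for Slc25a4, far above the other 12 mice, while Slc25a12 is also high in T2.

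The comparison of G with C asked what remained different from livers without DEN. None of the 43 members was called, against 0.427% of all genes (0.177% higher and 0.250% lower). Of the 43, 24 lay above zero (55.8%, against 48.8% of all genes), with 7 higher and 5 lower at an unadjusted p below 0.05 (27.9%, against 13.2% of all genes). The groups did not overlap for 1 member, Slc25a10, which was lower in group G (2.33%, against 5.77% of all genes, 2.80% above and 2.97% below). The median of the members was 0.03, against -0.003 for all genes. Slc25a5 stood at -0.36 (SE 0.11, adjusted p = 0.172), and it was called without G4 (-0.44, adjusted p = 0.0449). Under median scaling the median gene well above background was 0.56 higher in G than in C, and the values of Slc25a5, Slc25a10, Slc25a17 and Slc25a23, negative here, turned to 0.49, 0.21, 0.47 and 0.24, all below that median gene. Slc25a25 stood at 0.61 (SE 0.27, adjusted p = 0.353) and Slc25a42 at 0.14 (SE 0.15, adjusted p = 0.742). Slc25a17, a peroxisomal carrier of coenzyme A and related nucleotides, was at -0.34 (SE 0.12, adjusted p = 0.24) and Slc25a23, a carrier of ATP-Mg and phosphate, at -0.40 (SE 0.16, adjusted p = 0.324). Slc25a14 was at 0.33 (SE 0.13, adjusted p = 0.305), or 0.11 without C2 and 0.49 without C3.

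The remaining members had differences that did not pass the test. Slc25a15, the ornithine carrier of the urea cycle, ranged from 7.42 to 7.82 in group C, from 7.61 to 7.94 in group T and from 7.36 to 8.06 in group G. Slc25a22, a glutamate carrier, spread from 6.03 to 6.71 in group C and from 6.31 to 7.29 in group G. Slc25a3, which brings in the phosphate for ATP synthesis, stood at -0.03 (SE 0.11) in T minus C and -0.04 (SE 0.09) in G minus T. Slc25a38, the glycine carrier of haem synthesis, stood at 0.10 (SE 0.13) and -0.09 (SE 0.11), and Slc25a44, a carrier of branched-chain amino acids, at 0.00 (SE 0.14) and -0.02 (SE 0.12).

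Of the cofactor and nucleotide carriers, Slc25a26, which carries S-adenosylmethionine, stood at 0.07 (SE 0.06) in T minus C, Slc25a32, a folate and flavin carrier, at -0.02 (SE 0.15) and Slc25a33, a pyrimidine nucleotide carrier, at 0.22 (SE 0.17). In the iron and glutathione group, the mitoferrin Slc25a28 was between 8.58 and 8.65 in group C and between 8.73 and 8.84 in group T, without overlap (0.15, SE 0.08, adjusted p = 0.35), and reached 8.62 to 9.04 in group G. Slc25a39, the glutathione carrier, stood at -0.10 (SE 0.20) and spread from 8.22 to 9.17 within group C alone. Slc25a46, a protein of the outer mitochondrial membrane, was at 0.21 (SE 0.14), and Slc25a48 at 0.04 (SE 0.13). Slc25a24, Slc25a35, Slc25a40 and Slc25a43 had groups T and C apart, at levels between 5.81 and 6.32 that were not or rarely above background.

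Each of 7 members had 2 probes: Slc25a3, Slc25a25, Slc25a26, Slc25a33, Slc25a37, Slc25a44 and Slc25a46. For Slc25a25 the probes gave 0.28 (SE 0.33) and -0.16 (SE 0.28) in T minus C, 0.53 (SE 0.28) and 0.57 (SE 0.24) in G minus T, and 0.81 (SE 0.28) and 0.41 (SE 0.26) in G minus C. Its probes thus had opposite signs only between T and C, where both lay within 1 SE of zero. For Slc25a37, the mitoferrin that brings iron to the matrix, the probes gave 0.21 (SE 0.14) and 0.33 (SE 0.11) in G minus C. The Slc25a46 probe well above background on 15 arrays gave 0.32 (SE 0.24) in T minus C and 0.35 (SE 0.22) in G minus C. Its other probe, well above background on 1 array, gave 0.11 (SE 0.06) and 0.09 (SE 0.06). Both enter the value of the gene. Tested per probe, 1 probe of the 43 members was called in T against C, that of Slc25a10, and 0 in the other comparisons. Of all 55681 probes tested, 686 were called in T against C, 23 in G against T and 63 in G against C.

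The enzymes that use what these carriers transport were listed as well. Of 10 genes of the urea cycle and the malate-aspartate shuttle, 0 rose and 1 fell in T against C, 9 of the 10 lay below zero and the median was -0.42 (0.55 under median scaling, which is 0.10 below the median gene). The gene that fell was Ass1, the argininosuccinate synthase of the urea cycle, which uses the aspartate that Slc25a13 exports (-0.60, SE 0.10, adjusted p = 0.0133, but 0.49 with adjusted p = 0.286 under median scaling). Its adjusted p was 0.296 with the processed signal at the 75th percentile and 0.0561 without C2. Of 8 genes around the export and use of citrate, 2 fell in T against C, where 1.17% of all genes were called lower, with a median of -0.68 (0.02 under median scaling, which is 0.63 below the median gene). With cyclic loess or the processed signal at the 75th percentile 1 of the 8 was called lower. Me1, the cytosolic malic enzyme, was 12.11, 11.96 and 11.65 in group C and 10.56, 9.15, 9.63 and 10.08 in group T (-2.05, SE 0.29, adjusted p = 0.00992). It stayed called with both of these settings and in each of the 13 fits that left out 1 mouse, and stood at -1.09 (adjusted p = 0.0843) when arrays were scaled to their medians. In group G it was 11.28, 11.12, 10.96, 10.30, 11.13 and 11.14, and all but G4 lay above group T. Cs, the citrate synthase, stood at -0.93 (SE 0.21, adjusted p = 0.0441), but at 0.05 (adjusted p = 0.956) under median scaling, and it was called in only 3 of the 13 fits without 1 mouse (those without T1, G3 or G6). In G against C, Pck1, the cytosolic phosphoenolpyruvate carboxykinase of gluconeogenesis, rose by 1.96 (SE 0.38, adjusted p = 0.0495), against 0.177% of all genes called higher. Its adjusted p was 0.0707 to 0.121 with median scaling, cyclic loess and the processed signal at the 75th percentile, and the call was lost in 10 of the 13 fits without 1 mouse (kept without T1, T3 or G6), with adjusted p up to 0.206. Acly of the citrate list, not called with all mice, was called lower in T against C without T4 (-1.49, adjusted p = 0.0463) or G1 (-1.27, 0.0419). Asl of the urea cycle list was called lower there without T1 (-0.58, 0.0464) or G6 (-0.50, 0.0456). In G against C, Acly was called lower without T4, G1 or C3 (-1.42 to -1.62, adjusted p from 0.0453 to 0.0496). No gene of either list was called between G and T, except Me1 without T1 (1.37, adjusted p = 0.0272).

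Other parts of the transport machinery gave no calls in any comparison with all mice. These were 7 carrier relatives with other names (the uncoupling proteins Ucp1, Ucp2 and Ucp3 among them), 15 further transporters and channels of the mitochondrion, 13 components of the machinery that imports carrier proteins, and 4 genes of carnitine uptake and the carnitine shuttle. Their medians in T minus C were 0.06, -0.09, 0.02 and -0.14, and all were positive under median scaling. With that scaling 2 of the 7, 2 of the 15, 6 of the 13 and 0 of the 4 were called higher, against 2818 of all 22032 genes. Among the further transporters, Brp44l was called lower without T1 (-0.66, adjusted p = 0.0315) and Tspo without T2 (-0.45, adjusted p = 0.0411). In G minus T the medians of the 4 lists were -0.02, 0.10, -0.08 and 0.07.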

How the data were processed

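Liver RNA was hybridised to single-colour Agilent 8x60K mouse arrays. Per array, the authors deposited scanner output with the mean and background intensity of each spot in linear units, and a table of log2 values that, per the methods, had been corrected by normexp and quantile normalized. Here the scanner intensities were corrected by normexp (offset 50), converted to log2 and quantile normalized, and spots marked as outliers were left out. The values differed from the deposited log2 table by a median of 0.00292, and 99.2% lay within 0.05. Spots were averaged per probe, probes were centred and averaged per symbol, and arrays with the same RNA code were averaged. One limma fit (3.58.1, R 4.3.3) covered the 3 groups, with Benjamini-Hochberg adjustment over 22032 symbols and a threshold of 0.05, and was tested on simulated data. The p-values measure the spread between these mice.

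The members and gene lists were chosen with earlier results of these data known. Named were Slc25a47, every member called in any comparison, and in each comparison the 10 detected members with the largest difference. Further members are named as examples of their role group, and these were chosen after their values were seen. Alternatives changed the background correction, scaling, probe filter, flags, probe averaging, array averaging, slide, replicate block, array weights and test, or left out 1 mouse. Leaving out 1 mouse for the partner lists and summing only markers measured in every mouse were chosen after seeing the data. Probe positions (mm9) and symbols are those of the array's design, and upstream sequences are from RefSeq. No date or authors' comparison was used, and the slide barcode served only to tell the slides apart. Same-numbered mice of different groups did not deviate together (10 pairs, r from -0.31 to 0.25). The values of 1 member are not reported here.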

Additional observations from a re-analysis of the deposited data

Results flagged for a closer look

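Each group of 4 to 6 mice was searched for a mouse that stood apart from the others of its group, for all 44 members. Of 87 sets of values, 7 had such a mouse, where chance flags about 1 in 20. In G6, Slc25a4 stood at 13.044, with the next mouse at 8.481, and Slc25a34 at 8.007, with the next at 7.363. The markers of skeletal muscle were high in the same mouse, and their part was not tested. In T2, Slc25a16 stood at 7.147 (next 6.947) and Slc25a24 at 6.324 (next 6.106). The markers of exocrine pancreas were highest in T2, and their part was not tested. Slc25a16 was also high in G2, at 7.252 (next 7.084), and Slc25a41 was high in T1, at 6.327 (next 6.01). Slc25a47 stood at 12.167 in G3, against 12.015 in the next mouse of group G, and all 5 measured mice of group G lay above the other groups. The flagged spot of G5 was left out here. With flagged spots kept, G5 stood at 12.193, above G3 at 12.172.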

How the results depend on the processing

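Under median scaling the T minus C value of Slc25a47 turned to 0.66, that of Slc25a10 to 0.0079 (adjusted p = 0.99), and the G minus T and G minus C values of Slc25a47 were 0.63 and 1.29. The scanner's processed signal scaled to the 75th percentile, which also replaced the background correction, gave 0.62 for G minus T and -0.16 for T minus C, and slide 1 alone gave -0.46 for T minus C. The count of the 43 members called in T against C was 6 with median scaling or with 15 arrays as separate samples, 5 with array weights, 3 with dim probes left out or with the RNA code as a random block and slide as a term together, 2 with slide as the only added term, and 0 with cyclic loess, the processed signal at the 75th percentile, the replicate block and both forms of the methods' t-test. Per probe the counts were 4 with median scaling, 5 with 15 separate arrays or array weights, 2 with the random block and slide together or with slide alone, and 0 with cyclic loess, the processed signal and the replicate block. The replicate block took Slc25a10 to -0.68 (adjusted p = 0.0768). Leaving out 1 mouse gave 0 to 4 members (0 to 2 probes) in T against C, 0 in G against T and 0 to 1 in G against C.

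The median of the members moved to 0.49 (T minus C), -0.028 (G minus T) and 0.46 (G minus C) with median scaling and to -0.040, 0.024 and -0.00067 with the processed signal. For G minus T it was 0.027 with the brightest probe and 0.061 on slide 2, and for G minus C 0.057 with offset 16, -0.0084 without dim probes and 0.062 with array weights. Without 1 mouse it ranged from -0.032 to 0.065, from -0.014 to 0.031 and from 0.013 to 0.064, and the Slc25a47 values from -0.38 to -0.28, from 0.78 to 0.87 and from 0.45 to 0.52. Over all genes, 525 calls in T against C (268 higher) became 2832 (2818 higher) with median scaling, 185 (76 higher) with cyclic loess, 57 (27 higher) with the processed signal, 268 with the replicate block, 1947 with 15 separate arrays and 1138 with array weights. The 28 calls of G against T became 8, 30, 3, 6, 263 and 179 in that order, and the 94 of G against C became 0, 1, 1, 55, 342 and 110. Without 1 mouse these 3 counts ranged from 89 (without T3) to 761 (without T1), from 5 (without T2, T3, G2, G3 or G5) to 127 (without T1) and from 0 (without G3) to 182 (without C3), so that the shares of all genes given as background move as well. The causes were not tested. Of 14 named members in 3 comparisons, 1271 values kept their side of the threshold and their direction where called, 20 newly passed, 10 no longer passed and 1 reversed. The number of mice limits the precision, and 14 of the 44 members were not well above background on every array.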

Other observations

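The methods' t-test was run on the 43 other members in T minus C, G minus T and G minus C. With equal variances it gave 12, 4 and 5 members at an unadjusted p below 0.05, respectively. Over all 22032 genes the counts were 3846, 2302 and 2218, and 0, 5 and 1 genes passed after Benjamini-Hochberg adjustment. The form with unequal variances gave 9, 3 and 7 members, against 2961, 2183 and 2010 of all genes. After adjustment 0, 1 and 0 genes passed. Over the 44 members, G3 held the highest value for 7 and T2 for 6, and C2 held the lowest value for 9.

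G6 differed from the other mice in further marker lists. Over the markers measured in every mouse, the log2 of the summed erythroid markers (5 of 6) was 15.05 in G6, against 11.7 to 14.2 in the other 12 mice, and that of the adipocyte markers (4 of 6) 9.49, against 8.40 to 8.86. By smaller margins, G6 was also highest for cholangiocyte (8.945, next 8.802), stellate and fibroblast (10.771, next 10.65) and lymphocyte markers (9.689, next 9.663). It was not highest for hepatocyte, Kupffer cell and macrophage, endothelial or exocrine pancreas markers.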
